A study of Mus musculus with 26 samples.

Results

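The basal transcriptome of brown preadipocytes that carried only a juxtamembrane insulin receptor (JMO cells) was compared with that of receptor-null cells (DKO cells). The rule took the 3 JMO libraries without insulin and the 3 DKO libraries, 6 of the 26 libraries in the series, and every gene with more than 0.5 CPM (counts scaled to library size) in at least 4 of the 26, which left 15402 of 52962 gene rows. DKO cells were brown preadipocytes of newborn mice with floxed insulin receptor (IR, *Insr*) and IGF1 receptor (IGF1R, *Igf1r*) genes, immortalised with SV40 T antigen, given adenoviral GFP-tagged Cre and sorted for GFP. JMO cells were DKO cells after retroviral transduction and hygromycin selection for a FLAG-tagged human IR, B isoform, that was truncated after the juxtamembrane segment and had neither kinase domain nor C-terminal tail. The methods also name an empty vector, and the sources used here do not say whether the sequenced DKO cells carried it, so that the vector and its selection may differ between the groups along with the receptor. All cells were starved of serum for 6 h, and the basal groups received no insulin. Values from 3 other basal lines and from JMO cells given 100 nM insulin for 15 min are set beside this comparison where they show where it stands. Those lines carried full-length human IR, the kinase-dead K1030R receptor, or a receptor that lacked only the C-terminal tail (∆CT, labelled CT), again in the DKO background. Each receptor was present in 1 transduced line, and the labels do not say whether the 3 replicates were separate cultures, so that p-values measure the spread between these libraries, which may be technical.

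The IR is a tyrosine kinase at the cell surface that binds insulin outside the cell and phosphorylates itself and docking proteins inside it, which starts the PI3 kinase and AKT branch and the RAS and ERK branch of the response. The juxtamembrane segment joins the membrane helix to the kinase domain and holds a motif through which docking proteins and endocytic adaptors bind. In brown preadipocytes, insulin and IGF1 are known for supporting growth, survival and differentiation into fat cells. A truncated receptor without a kinase can still sit in the membrane and bind hormone, so that a comparison with receptor-null cells shows RNA levels with the outer domain and membrane anchor present and kinase activity of the receptor absent.

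The targeted transcript was examined first. *Insr* (ENSMUSG00000005534, chr8:3122061-3279617, GRCm38, minus strand) measured 24.4, 24.8 and 22.3 CPM in DKO libraries 1, 2 and 3 and 74.2, 68.9 and 69.8 CPM in JMO libraries 1, 2 and 3. The JMO libraries all lay above the DKO libraries, with means of 23.8 ± 1.32 and 71 ± 2.82 CPM (SD, n = 3) and a log2 fold change of 1.58 (SE 0.0524, adjusted p = 1.19e-21). Here and below the log2 fold change is JMO minus DKO, and the adjusted p comes from the quasi-likelihood F test of edgeR, corrected over the 15402 genes by the Benjamini-Hochberg method. The human sequence has no entry of its own among the mouse transcripts, so reads of the transgene could be counted only where they matched mouse *Insr*, and transcripts of the inactivated locus were still counted in DKO cells. The *Insr* level was 67.7 CPM with full-length IR, 71.1 with K1030R and 78.4 with ∆CT, and JMO cells differed from the mean of these lines by a log2 of -0.02 (adjusted p = 0.648). The truncated receptor may have a shorter transcript, so a similar CPM does not show a similar number of receptor transcripts. *Igf1r* (ENSMUSG00000005533), the other inactivated receptor gene, measured 27.9, 24.7 and 28.6 CPM in DKO and 30.7, 29.7 and 29.8 CPM in JMO libraries. Its log2 fold change of 0.15 (SE 0.0543, adjusted p = 0.0326) lost its call without DKO replicate 2 (0.09, adjusted p = 0.242), JMO replicate 1 (0.14, 0.102), JMO replicate 2 (0.16, 0.0501) or JMO replicate 3 (0.15, 0.0575), and also without a filter on low counts, with DESeq2 and in a fit of the groups compared alone (adjusted p = 0.0558 to 0.11).

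Library totals were 17535582 to 24694828 counts in DKO and 19594088 to 24439952 in JMO cells, so that 0.5 CPM stood for 8.61 to 12.3 counts over the series. The 10 most abundant genes took 6.73 to 7.51% of counts in DKO and 9.14 to 9.46% in JMO libraries, and *Gm42418*, a gene model that overlaps ribosomal RNA sequence, took 2.48 to 3.28% and 4.47 to 4.87%. Leaving out *Gm42418* and *Lars2*, an alternative added after the data were seen, gave 330 called genes (211 higher, 119 lower). Among 15 preadipocyte and mesenchymal markers, 12 were tested, and their summed level was 2570 to 2590 CPM in DKO and 2270 to 2330 CPM in JMO libraries, while *Dlk1*, *Prdm16* and *Ebf2* were at or near 0. Of 7 mature fat cell markers, *Adipoq*, *Cidec*, *Lep* and *Ucp1* had no count in the 6 libraries, and the summed level was 2.58 to 2.80 and 4.45 to 4.97 CPM. Summed markers were 14.5 to 17 and 13 to 15.2 CPM for macrophages and leukocytes (*Adgre1* and *Fcgr1* at 0), 8.98 to 16.4 and 8.99 to 12.5 for endothelium, 0.602 to 1.18 and 0.607 to 0.868 for skeletal muscle, 5.11 to 5.77 and 6.32 to 7.2 for Schwann and neural cells, and 0.324 to 0.399 and 0.101 to 0.123 for epithelium. In bulk RNA, fewer cells that express a gene and less of its RNA per cell cannot be told apart.

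A second edgeR test, glmTreat, asked whether the fold exceeded 1.5, and its own adjusted p is named the minimum-fold adjusted p. A measured fold above 1.5 was not enough to pass it. At a minimum-fold adjusted p under 0.05 (called below passing the minimum fold), 325 genes differed between JMO and DKO cells, 2.11% of the genes tested. Of these, 212 (1.38%) were higher and 113 (0.734%) were lower in JMO cells. The libraries of the groups did not overlap for 323 of the 325, against 47.0% of all genes tested. Median fold was 2.52 among genes higher and 2.42 among genes lower in JMO cells, and 171 rose and 85 fell by more than a log2 of 1. Most were protein-coding, 204 of the 212 and 104 of the 113. Many of the genes that rose started from little RNA, with 80 of the 212 below 1 CPM in DKO cells, and 19 of the 113 that fell were below 1 CPM in JMO cells. The filter on low counts did not treat the directions alike. A gene expressed in DKO libraries alone could not pass it, while a gene expressed in JMO libraries alone could, through those with and without insulin. With no such filter, 233 genes were higher and 159 lower at the minimum fold. The filtered counts of 80 and 19 therefore cannot be set against each other as a difference between directions. Without a minimum fold, 2596 genes (16.9%) were higher and 2680 (17.4%) lower, and the median log2 fold change over all genes was 0.0075. Counts of gene list members below use this last rule unless the minimum fold is named, and are to be read against 16.9% and 17.4%. Most genes named from a list are its called members of smallest p. Separation of their JMO and DKO libraries is favoured by that choice and is no separate result, and is to be read against the 47.0%.

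**Figure D1:**
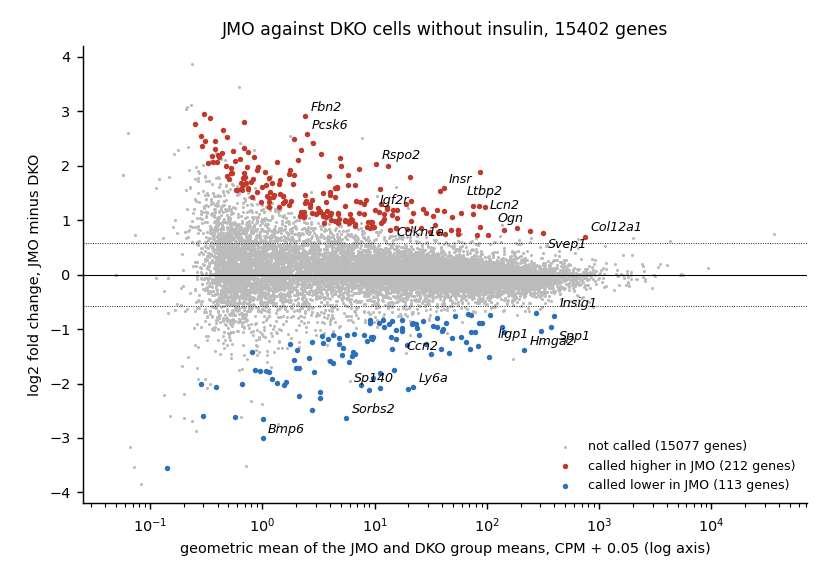
Log2 fold change of JMO against DKO cells (vertical axis) against the geometric mean CPM of the groups (horizontal axis, log scale) for the 15402 genes tested, with the 212 genes called higher in red, the 113 called lower in blue and dotted lines at 1.5-fold. Called genes lie at all but the highest levels, and those with the largest fold changes lie mostly to the left, at low CPM.

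The 15 largest increases were in genes of secreted, membrane and intracellular proteins. These genes and the 15 largest decreases were taken only from called genes whose JMO and DKO libraries did not overlap. Non-overlap in them was therefore a condition of the choice and not a result. *Fbn2* (ENSMUSG00000024598, fibrillin 2, a microfibril component) had the largest log2 fold change among the named genes that rose. It measured 0.87, 0.966 and 0.721 CPM in DKO and 6.14, 6.22 and 6.64 CPM in JMO libraries, a 7.51-fold higher mean (log2 2.91, SE 0.153, adjusted p = 8.38e-17). *Pcsk6*, a protease that activates growth factor precursors in the secretory pathway, measured 1.2, 1.08 and 0.721 CPM in DKO and 5.41, 5.51 and 6.64 CPM in JMO libraries (log2 2.58). *Pcdh7*, a protocadherin of cell contacts, measured 1.52, 1.31 and 1.72 CPM in DKO and 7.64, 6.74 and 7.04 CPM in JMO libraries (log2 2.21, adjusted p = 7.31e-15). *Ano3*, a member of the anoctamin membrane protein family, measured 1.14, 1.31 and 1.16 CPM in DKO and 6.26, 6.63 and 6.34 CPM in JMO libraries (log2 2.41, adjusted p = 1.36e-12). A gap between the groups that is wide beside the spread within them follows from the same choice and is no separate result.

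Several other genes with large increases were expressed at about 1 CPM or less in DKO cells. They were *Adamtsl1* (a secreted matrix protein related to the ADAMTS proteases, log2 2.81, SE 0.348), *Abat* (GABA transaminase, 2.5, SE 0.217), *Epb41l4a* (2.32), *Sema3d* (a secreted semaphorin, 2.29), *Cdh3* (P-cadherin, 2.26), *Pax9* (a paired-box transcription factor, 2.25), *Ror1* (a receptor tyrosine kinase-like Wnt receptor, 2.15), *Slc16a6* (a monocarboxylate transporter family member, 2.12), *Ddit4l* (an inhibitor of mTOR signalling, 2.1) and *Fbln7* (fibulin 7, 2.09). In JMO libraries they lay between 0.765 CPM (*Fbln7*, library 2) and 5.3 CPM (*Abat*, library 3). With DESeq2, *Slc16a6* and *Fbln7* missed the minimum fold (minimum-fold adjusted p = 0.2 and 0.0918).

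Genes with the largest decreases, chosen under the same condition of no overlap, included growth factor, cytoskeletal and immune-related genes. *Bmp6* (ENSMUSG00000039004), a secreted ligand of the TGF-β superfamily, measured 2.34, 3.24 and 2.44 CPM in DKO and 0.366, 0.306 and 0.297 CPM in JMO libraries, an 8.04-fold lower mean (log2 -3.01, SE 0.285, adjusted p = 2.2e-10). *Sorbs2*, an adaptor protein of actin fibres and adhesions, measured 14.8, 12.7 and 13.8 CPM in DKO and 2.2, 2.7 and 1.73 CPM in JMO libraries (log2 -2.64, SE 0.135, adjusted p = 4.33e-17). That the gap in both of these genes was wider than the spread follows from this choice. *Anxa8*, a calcium-dependent phospholipid-binding annexin, measured 19.2, 18.5 and 17.5 CPM in DKO and 5.04, 5.31 and 4.46 CPM in JMO libraries (log2 -1.9). *Sema7a*, a membrane-anchored semaphorin, measured 15.9, 15.2 and 14.8 CPM in DKO and 4.47, 3.57 and 3.12 CPM in JMO libraries (log2 -2.02). The surface antigens *Ly6a* (Sca-1, used as a marker of mesenchymal progenitors) and *Ly6c1* fell by log2 values near 2, from 44.9 ± 3.71 to 10.7 ± 0.793 CPM (log2 -2.06) and from 18.4 ± 0.409 to 4.24 ± 0.642 CPM (log2 -2.12). They belong to a family of close copies, so the sharing of reads between members is uncertain. The others were *Klhl30* (log2 -2.64), *Ackr3* (an atypical chemokine receptor that takes up CXCL12, -2.61), *Trim30d* (-2.49), *Serpinb9b* (a serine protease inhibitor, -2.27), *Xlr* (-2.16), *Sp140* (-2.11), *Sp110* (-2.08), *Trim30c* (-2.02) and *Dusp27* (an atypical dual-specificity phosphatase family member, -1.98).

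**Figure D2:**
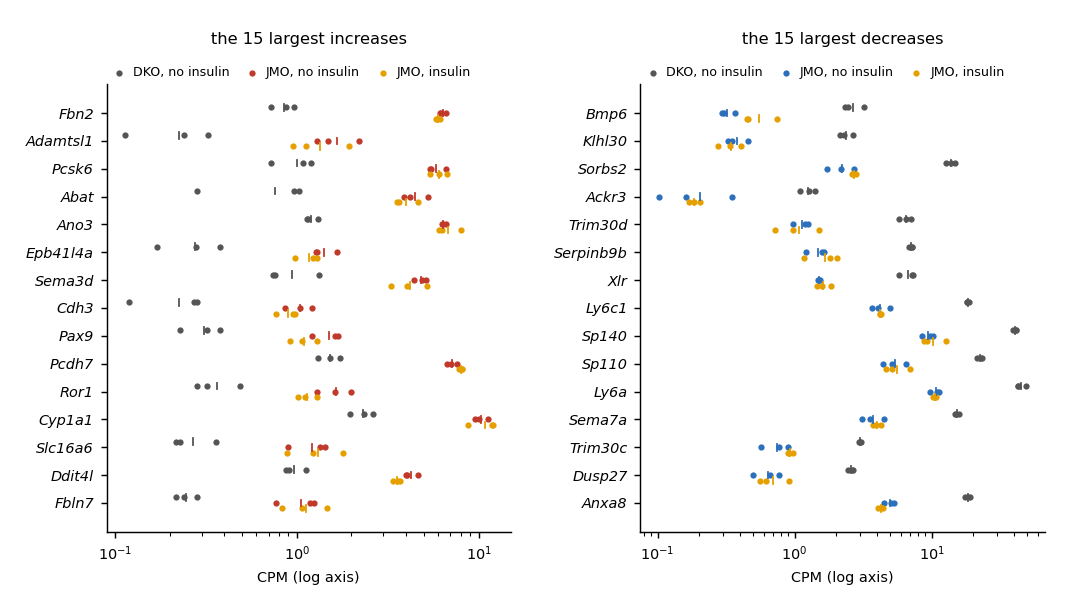
CPM (log scale) of the 15 named genes with the largest increases and the 15 with the largest decreases, 1 point per library, in DKO, basal JMO and insulin-treated JMO cells (n = 3 each), with ticks at the group means. The genes were chosen with no overlap between basal JMO and DKO points, and the JMO points with insulin lie on the same side of the DKO points.

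Abundant genes changed by less, on the log2 scale, than the 15 largest increases and decreases. *Col12a1* (collagen XII, which binds along collagen I fibrils) was nearly constant within each group, at 585, 585 and 587 CPM in DKO and 949, 948 and 949 CPM in JMO libraries (log2 0.70, SE 0.0305, adjusted p = 7.35e-19). *Svep1* (a large secreted adhesion protein) went from 243 ± 5.29 to 412 ± 7.66 CPM, *Ogn* (osteoglycin, a small leucine-rich proteoglycan) from 182 ± 6.02 to 317 ± 6.85, *Hs6st2* (a heparan sulfate 6-O-sulfotransferase) from 138 ± 5.11 to 249 ± 2.25 and *Fat4* (an atypical cadherin) from 106 ± 0.745 to 187 ± 1.62, with log2 fold changes of 0.76, 0.80, 0.85 and 0.81. All of them passed the minimum fold. Of the abundant genes that fell, *Spp1* (osteopontin) went from 525 ± 10.7 to 268 ± 11.9 CPM (log2 -0.97) and *Hmga2*, an architectural chromatin protein of growing mesenchymal cells, from 349 ± 25.2 to 133 ± 17.9 CPM (log2 -1.39, SE 0.128). *Iigp1*, an interferon-inducible GTPase, went from 436 ± 26.4 to 214 ± 14.1 CPM (log2 -1.03). It missed the minimum fold whenever any 1 of the 6 libraries was left out (log2 -1.07 to -0.97, minimum-fold adjusted p = 0.0624 to 0.169) and with DESeq2. *Vat1* went from 351 ± 5.58 to 216 ± 10.3 CPM (log2 -0.70), and missed the minimum fold without DKO replicate 1, 2 or 3 or JMO replicate 1 or 3, with DESeq2 and with limma (minimum-fold adjusted p = 0.0652 to 0.422).

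Among 28 tested genes of insulin and IGF signalling, 13 were higher and 7 lower in JMO cells, with a median log2 fold change of 0.13. Apart from *Insr*, *Igf2r* was the only member past the minimum fold. *Igf2r*, which takes up IGF2 and sorts lysosomal enzymes, measured 19.1, 16.3 and 17.7 CPM in DKO and 40.3, 40.9 and 40.7 CPM in JMO libraries (log2 1.2, SE 0.0614, adjusted p = 4.66e-17), with no overlap. *Pik3r1*, the regulatory subunit of PI3 kinase, went from 109 ± 0.619 to 164 ± 6.03 CPM (log2 0.60, adjusted p = 8e-16), and *Akt1*, the kinase downstream of it, from 249 ± 1.3 to 195 ± 3.8 CPM (log2 -0.35, adjusted p = 1.88e-09). Of 6 IGF binding proteins and their proteases, 1 was higher (2 without JMO replicate 1) and 3 were lower. The higher gene was *Pappa2*, a protease that cleaves IGF binding proteins, at 10.5, 11.1 and 11.8 CPM in DKO and 39, 37.5 and 40.3 CPM in JMO libraries (log2 1.8, SE 0.0658, adjusted p = 7.65e-21). Its relative *Pappa* (log2 -0.78), the secreted protease *Htra1* (-0.48) and *Igfbp6* (-0.25) fell.

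Of 30 receptor tyrosine kinases, 14 were higher and 5 lower (3 without DKO replicate 2, JMO replicate 2 or JMO replicate 3), with a median log2 of 0.21. *Egfr*, the EGF receptor, measured 28.8, 28.7 and 27.9 CPM in DKO and 43.2, 43.8 and 45.1 CPM in JMO libraries (log2 0.63, adjusted p = 4.42e-13), with every JMO library higher. *Ptk7*, a kinase-like Wnt co-receptor, rose by a log2 of 0.52, the ephrin receptor *Ephb4* by 0.44 and *Pdgfra*, the PDGF receptor of mesenchymal progenitors, by 0.43, none past the minimum fold.

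Of 35 p53 target genes, 23 were higher and 3 lower in JMO cells, with a median log2 fold change of 0.39, and 5 passed the minimum fold. p53 is a transcription factor that responds to damage and other stress, and SV40 T antigen, present in all of these lines, binds it. *Cdkn1a* (ENSMUSG00000023067, chr17:29090976-29100727, p21, an inhibitor of cyclin-dependent kinases) measured 39.5, 41.5 and 43.8 CPM in DKO and 69.9, 76 and 73.4 CPM in JMO libraries, with no overlap (log2 0.81, SE 0.0522, adjusted p = 1.55e-14). *Trp53inp1*, a p53-induced nuclear protein, measured 66.2, 69.7 and 72.8 CPM in DKO and 103, 106 and 103 CPM in JMO libraries (log2 0.58, adjusted p = 1.41e-10) and did not pass the minimum fold. Both genes stood apart in every library. *Psrc1*, a microtubule-associated protein, went from 8.51 ± 0.402 to 19.7 ± 1.07 CPM (log2 1.21), *Ephx1*, microsomal epoxide hydrolase, from 63.6 ± 3.74 to 102 ± 2.39 (log2 0.67) and *Ccng1*, cyclin G1, from 93.8 ± 2.17 to 142 ± 5.28 (log2 0.59). *Ephx1* passed the minimum fold only without DKO replicate 3 (log2 0.73, minimum-fold adjusted p = 0.038). *Trp53cor1*, a long noncoding RNA gene next to *Cdkn1a* that was picked after its values were seen, was also called higher.

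The rest of the cell cycle machinery moved less. Of 24 cyclins, cyclin-dependent kinases and their inhibitors, 3 were higher and 7 lower (4 without JMO replicate 1), and *Cdkn1a* alone passed the minimum fold. *Cdkn2b* (p15, log2 0.40) and *Rbl2* (p130, a retinoblastoma relative, 0.30) rose with it, and *Cdk4*, the G1 kinase, went from 426 ± 7.49 to 356 ± 5.36 CPM (log2 -0.26, adjusted p = 1.2e-08). Of 26 proliferation markers, 2 were higher and 5 lower (3 without DKO replicate 1 or 2). *Pcna*, the DNA polymerase clamp, fell by 0.14 on the log2 scale and *Rrm2*, a ribonucleotide reductase subunit, fell by 0.29, while the replicative helicase subunit *Mcm5* rose by 0.20 and the spindle motor *Kif11* by 0.18.

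Of 33 cell death genes, 9 were higher and 10 lower. *Gsdmd*, the pore protein of pyroptosis, measured 0.489, 0.909 and 0.52 CPM in DKO and 3.29, 2.7 and 1.83 CPM in JMO libraries (log2 2.06, SE 0.282, adjusted p = 4.28e-07). *Fas*, a death receptor and also a p53 target, measured 20.1, 19.8 and 18.3 CPM in DKO and 35.7, 34.9 and 34.6 CPM in JMO libraries (log2 0.86, adjusted p = 2.06e-11), and missed the minimum fold without DKO replicate 3 (log2 0.82, minimum-fold adjusted p = 0.0592) and with DESeq2 (0.172). Neither gene overlapped between the groups. *Ripk3*, the kinase of necroptosis, rose by a log2 of 0.82 and missed the minimum fold without DKO replicate 2 or 3 or JMO replicate 1 or 2, without a filter on low counts, with DESeq2, with limma and in a fit of the groups compared alone (minimum-fold adjusted p = 0.0592 to 1). *Casp12* fell from 62.7 ± 1.3 to 49.6 ± 0.316 CPM.

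Immediate early genes and feedback regulators of the ERK pathway were more often lower than higher in JMO cells. Of 33 tested, 18 were lower and 3 higher, with a median log2 fold change of -0.34. *Dusp6*, a phosphatase that inactivates ERK and whose own gene is induced by ERK activity, measured 29.9, 29 and 30.9 CPM in DKO and 16.4, 15.4 and 16.9 CPM in JMO libraries (log2 -0.88, SE 0.0869, adjusted p = 8.41e-10). *Dusp4*, a nuclear phosphatase of the same family, went from 18.6 ± 1.44 to 9.84 ± 0.143 CPM (log2 -0.91, adjusted p = 6.2e-10). Every DKO library of both genes was above every JMO library. *Klf2*, a zinc finger transcription factor, went from 23.4 ± 0.73 to 13.2 ± 0.507 CPM (log2 -0.83) and its relative *Klf6* from 179 ± 4.45 to 128 ± 5.93 (log2 -0.48, not past the minimum fold). The minimum-fold call was lost without DKO replicate 3 for *Dusp6* (log2 -0.86, minimum-fold adjusted p = 0.0572) and *Klf2* (-0.80, minimum-fold adjusted p = 0.0567). It was also lost without JMO replicate 2 for *Dusp6* (-0.85, minimum-fold adjusted p = 0.064) and without DKO replicate 1 for *Dusp4* (-0.85, minimum-fold adjusted p = 0.0686). With DESeq2, *Dusp6*, *Dusp4* and *Klf2* all lost it (minimum-fold adjusted p = 0.16 to 0.269). In the other lines *Dusp6* stood at 8.84 CPM with IR, 11.9 with K1030R and 11 with ∆CT, below JMO cells by a log2 of 0.63 against their mean (adjusted p = 4.34e-08). Among further members, chosen after their values were seen, the ERK pathway inhibitors *Spry1*, *Spry2*, *Spry4*, *Spred1* and *Spred2* had log2 fold changes of -0.62, -0.57, -0.79, -0.18 and -0.37.

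Genes of the extracellular matrix moved in both directions. In the list of elastic fibre and latent TGF-β genes, 7 of 25 were higher and 9 lower. *Ltbp2*, a latent TGF-β binding protein of microfibrils, measured 49.1, 48.8 and 49.2 CPM in DKO and 112, 114 and 129 CPM in JMO libraries (log2 1.27, SE 0.0499). *Fbn2* rose as given above, while *Efemp1* (fibulin 3) went from 43.9 ± 1.2 to 29 ± 1.33 CPM (log2 -0.60) and *Emilin2* from 141 ± 2.13 to 109 ± 4.4 CPM (log2 -0.38). Of 30 proteoglycans and matricellular proteins, 10 were higher and 9 lower. *Fmod* (fibromodulin, which binds collagen fibrils) measured 3.59, 3.07 and 4.24 CPM in DKO and 14.6, 13.2 and 14.6 CPM in JMO libraries (log2 1.94, SE 0.125, adjusted p = 1.39e-14), and *Ccn3*, a matricellular protein of the CCN family, 13.6, 13.1 and 13.4 CPM in DKO and 35.4, 34.1 and 32.2 CPM in JMO libraries (log2 1.34, adjusted p = 3.49e-17). The groups did not overlap in either gene. *Enpp2*, autotaxin, lies next to *Ccn3* among the tested genes of chromosome 15. It was picked because both neighbours were called higher, so that its call is no separate result.

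Of 10 fibrillar collagen genes, 6 were higher and 2 lower. *Col5a2*, a subunit of collagen V, went from 936 ± 10.6 to 1347 ± 26.4 CPM (log2 0.53) and *Col3a1*, collagen III, from 1083 ± 45.8 to 719.8 ± 13.2 CPM (log2 -0.59). Both were named for their small p (adjusted p = 2.03e-17 and 4.23e-15). *Col2a1*, the cartilage collagen, rose from 0.247 ± 0.0339 to 0.921 ± 0.104 CPM (log2 1.87) and missed the minimum fold with DESeq2 (minimum-fold adjusted p = 0.542) and limma (0.0677), and *Col11a1* went from 199 ± 0.881 to 177 ± 1.79 (log2 -0.17). Of 22 other collagens, 11 were higher and 5 lower. The basement membrane chains split, with *Col4a5* (log2 0.50) and *Col4a6* (0.57) higher and *Col4a1* (-0.66) lower, and *Col4a1* passed the minimum fold only without DKO replicate 2 (log2 -0.69, minimum-fold adjusted p = 0.0446).

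Of 20 collagen-modifying enzymes, 6 were higher and 6 lower. *Loxl4* rose from 57.9 ± 2.01 to 88.2 ± 2.45 CPM and *Loxl2*, another lysyl oxidase-like enzyme that cross-links collagen, fell from 222 ± 7.42 to 155 ± 3.26 CPM (log2 0.60 and -0.51). *P3h2*, a prolyl 3-hydroxylase, rose by a log2 of 1.0 and missed the minimum fold without DKO replicate 1 (log2 0.87, minimum-fold adjusted p = 0.124), with DESeq2 (0.293) and with limma (0.0802), and *Bmp1*, the procollagen C-proteinase, fell from 211 ± 1.99 to 157 ± 7.57 CPM. Among 28 matrix proteases and inhibitors, 7 were higher and 11 lower. *Mmp2*, the gelatinase, measured 56.5, 57.6 and 60.4 CPM in DKO and 30.1, 27.2 and 29.3 CPM in JMO libraries (log2 -1.01, SE 0.0609, adjusted p = 3.1e-15), and its activator *Mmp14* went from 380.4 ± 9.05 to 253 ± 7.18 CPM (log2 -0.59). Both were lower in every JMO library. *Timp3*, an inhibitor of these proteases, fell by 0.32 on the log2 scale, and *Adamts5*, an aggrecan-cleaving protease, rose by 0.57. Of 25 integrins and laminins, 6 were higher and 11 lower. *Itga7*, a laminin receptor subunit, measured 24.5, 22 and 22.5 CPM in DKO and 8.54, 9.59 and 8.72 CPM in JMO libraries (log2 -1.36), and *Lama2*, the laminin chain of the muscle basement membrane, 9.89, 10.6 and 11 CPM in DKO and 23.7, 25.4 and 23 CPM in JMO libraries (log2 1.19). *Itga1*, a collagen receptor subunit, rose by 0.55.

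Most Wnt pathway regulators and targets were not called, while some secreted members rose. Of 20 tested, 7 were higher, 2 lower (1 without DKO replicate 2 or JMO replicate 3) and 11 not called. Their median log2 fold change was 0.18, and the lowest was -0.76. *Rspo2*, a secreted amplifier of Wnt signals, measured 5.0, 4.94 and 5.41 CPM in DKO and 20.7, 19.9 and 22.2 CPM in JMO libraries (log2 2.02, SE 0.139, adjusted p = 1.34e-10). *Sfrp2*, a secreted Frizzled-related protein that binds Wnt ligands, measured 21.2, 22.8 and 23.2 CPM in DKO and 62.1, 64.3 and 67.9 CPM in JMO libraries (log2 1.53, SE 0.0556, adjusted p = 7.65e-21). The groups did not overlap in either gene, which the choice by smallest p favours. *Rspo3* rose by a log2 of 0.58 and *Dkk3*, a dickkopf family member, by 0.72. Of 15 Notch and ID genes, 6 were higher and 2 lower. *Jag1*, a Notch ligand, went from 6.75 ± 0.528 to 12.3 ± 1.3 CPM (log2 0.85), with the minimum-fold call lost without DKO replicate 1 or 2 or JMO replicate 3, without a filter on low counts, with DESeq2, with limma and in a fit of the groups compared alone (minimum-fold adjusted p = 0.057 to 0.976). *Maml2*, a Notch coactivator, rose by 0.51 and *Id3*, an inhibitor of bHLH factors, by 0.52, while *Rbpj*, the DNA-binding partner of Notch, fell by 0.30 on the log2 scale.

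Of 18 adipocyte lineage genes, 6 were higher and 6 lower. *Lpl*, lipoprotein lipase, measured 24.9, 25.7 and 25.1 CPM in DKO and 48.1, 47.2 and 47.8 CPM in JMO libraries (log2 0.92, SE 0.0475, adjusted p = 5.53e-17). *Gata2*, a factor known for holding preadipocytes undifferentiated, rose from 4.07 ± 0.417 to 8.73 ± 0.699 CPM (log2 1.11), and *Zfp521*, an inhibitor of early adipogenic commitment, from 28.6 ± 1.04 to 40.3 ± 2.4 (log2 0.49). *Ppargc1a*, the coactivator of mitochondrial and thermogenic genes, rose from 5.78 ± 0.414 to 10.04 ± 1.45 CPM (log2 0.79) and passed the minimum fold only without JMO replicate 2 (log2 0.91, minimum-fold adjusted p = 0.0225). *Fabp4*, a fat cell lipid carrier that is induced on differentiation, stood at 2.39, 2.5 and 2.56 CPM in DKO and 4.76, 4.13 and 4.36 CPM in JMO libraries (log2 0.83, adjusted p = 0.00099), a low level in all libraries. *Thy1*, a surface glycoprotein of mesenchymal progenitors, measured 7.55, 5.85 and 6.45 CPM in DKO and 27.2, 26.6 and 24.8 CPM in JMO libraries (log2 1.99, SE 0.0742, adjusted p = 1.12e-20) and moved opposite to *Ly6a*, another marker of the same cells.

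Of 28 Hox and positional factors, 9 were lower and 1 higher (0 without DKO replicate 3). *Hoxc13* fell from 4.33 ± 0.471 to 1.5 ± 0.526 CPM (log2 -1.53, adjusted p = 3.97e-06), *Hoxc10* from 16.4 ± 1.12 to 11.6 ± 0.493 (log2 -0.50), *Hoxc9* by a smaller step (log2 -0.32) and *Hoxb7* likewise (log2 -0.31). With DESeq2, *Hoxc13* missed the minimum fold (minimum-fold adjusted p = 0.109). Hox genes record the position of a cell along the body axis. Among 12 imprinted genes, which are expressed from 1 parental copy, 5 were higher and 1 lower (0 without DKO replicate 3, JMO replicate 2 or JMO replicate 3). *Peg10* went from 23.7 ± 1.35 to 40.7 ± 0.476 CPM (log2 0.78), *Plagl1*, a zinc finger factor of an imprinted gene network, from 48 ± 2.49 to 68.6 ± 0.862 (log2 0.51), and *Grb10*, an adaptor that binds and inhibits insulin receptors, from 127 ± 1.67 to 149 ± 2.67 (log2 0.24, adjusted p = 3.43e-07). *Peg10* missed the minimum fold with DESeq2 (minimum-fold adjusted p = 0.139).

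Genes of cholesterol synthesis were mostly lower in JMO cells. Of 22 tested, 17 were lower and 0 higher, the median log2 fold change was -0.30, and none passed the minimum fold. *Cyp51*, lanosterol demethylase, measured 538, 542 and 536 CPM in DKO and 415, 409.7 and 357 CPM in JMO libraries (log2 -0.45). The differences were small, and since the genes named were called members of smallest p, a gap beyond the spread follows from the choice. *Sc5d*, sterol C5-desaturase, fell from 314 ± 2.16 to 237 ± 10.7 CPM and *Fdft1*, squalene synthase, from 238 ± 5.19 to 186 ± 13.2. In the list of cholesterol uptake and control, 6 of 13 were lower and 1 higher. *Insig1* (ENSMUSG00000045294), which holds SREBP in the endoplasmic reticulum and is itself an SREBP target, measured 511, 516 and 520.5 CPM in DKO and 312, 307 and 293 CPM in JMO libraries (log2 -0.76, SE 0.0369, adjusted p = 1.06e-17) and was the only member past the minimum fold. *Mylip*, a ubiquitin ligase, fell by 0.29 and the sterol carrier *Stard4* fell by 0.23 on the log2 scale.

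Of 18 genes of fatty acid synthesis and desaturation, 8 were lower (3 without JMO replicate 3 and 5 without DKO replicate 3) and 4 higher. *Fasn*, fatty acid synthase, measured 793, 842 and 855 CPM in DKO and 635, 636 and 592 CPM in JMO libraries (log2 -0.42, adjusted p = 6.59e-11), and *Acaca*, acetyl-CoA carboxylase 1, fell by 0.17 on the log2 scale. *Acacb*, acetyl-CoA carboxylase 2, and *Dgat2*, which completes triglyceride synthesis, rose by 0.52 and 0.69. Among 30 genes of glucose entry and glycolysis, 13 were lower and 6 higher. *Hk1*, a hexokinase, went from 289 ± 6.09 to 239.9 ± 3.37 CPM (log2 -0.27), while *Pdk4*, a kinase that switches off pyruvate dehydrogenase, went from 154 ± 4.98 to 205 ± 3.08 (log2 0.42), *Pfkm* rose by 0.32 and *Ldhb* by 0.58.

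Targets of the amino acid stress factor ATF4 and amino acid transporters were mostly higher. Of 29 tested, 17 were higher and 1 lower (0 without DKO replicate 1, DKO replicate 2 or JMO replicate 3, 2 without JMO replicate 2), with a median log2 of 0.31. *Slc7a11*, the cystine transporter, measured 11, 9.55 and 8.69 CPM in DKO and 23.7, 21.9 and 20.7 CPM in JMO libraries (log2 1.19, SE 0.0938, adjusted p = 9.12e-12). *Asns*, asparagine synthetase, measured 49.1, 53.6 and 49 CPM in DKO and 74.4, 71.6 and 71.3 CPM in JMO libraries (log2 0.52), and neither gene overlapped between groups. *Slc3a2*, the heavy chain of several amino acid transporters, rose by 0.41 and *Aldh18a1*, an enzyme of proline synthesis, by 0.40. Of 37 antioxidant genes, many of them targets of NRF2, 17 were higher and 4 lower (2 without DKO replicate 1 or JMO replicate 3). *Hmox1*, heme oxygenase, went from 48.4 ± 1.61 to 68.4 ± 0.495 CPM (log2 0.50) and *Aox1*, aldehyde oxidase, from 55.1 ± 0.356 to 77.8 ± 5.21 (log2 0.50). *Prdx2*, a peroxiredoxin, rose by 0.78 and missed the minimum fold without DKO replicate 3 (log2 0.74, minimum-fold adjusted p = 0.121) or JMO replicate 2 (0.72, minimum-fold adjusted p = 0.115), with DESeq2 (0.326) and with limma (0.0975). *Ugdh* fell from 359.9 ± 10.6 to 285 ± 5.45 CPM.

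Of 8 genes of the aryl hydrocarbon receptor and its targets, 4 were higher and 0 lower. *Cyp1a1* (ENSMUSG00000032315), the best known target, measured 1.96, 2.33 and 2.64 CPM in DKO and 10.1, 11.2 and 9.56 CPM in JMO libraries (log2 2.14, SE 0.187, adjusted p = 8.26e-11). *Cyp1b1* and *Ahr*, the receptor itself, rose by 0.27 and 0.23. *Ahrr*, the receptor's repressor, rose by 0.87 (adjusted p = 0.0467) from under 1 CPM, and lost that call without DKO replicate 1 or 2 or JMO replicate 1 or 2, without a filter on low counts, with DESeq2, with the replicate number as a block and in a fit of the groups compared alone (adjusted p = 0.0501 to 0.233). Of 24 genes of the unfolded protein response, 5 were higher and 8 lower, with changes of *Herpud1* (0.40), *Hsp90b1* (-0.15), *Dnajc3* (-0.16) and *Atf6* (-0.24) on the log2 scale, none past the minimum fold.

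Several interferon-stimulated genes were lower in JMO than in DKO cells. Of 55 tested, 16 were lower (10 without JMO replicate 2) and 2 higher (1 without any 1 library except DKO replicate 3), 37 were not called, and the median log2 fold change was -0.14. With no filter on low counts, 30 were lower and 5 higher. *Sp110*, a nuclear body protein on chromosome 1, measured 21.6, 23.1 and 23.5 CPM in DKO and 5.12, 4.44 and 6.54 CPM in JMO libraries (log2 -2.08). Its neighbour and relative *Sp140* measured 41.4, 41.6 and 39.6 CPM in DKO and 9.68, 8.52 and 10.2 CPM in JMO libraries (log2 -2.11). Their sequences resemble each other, so how reads were divided between them is uncertain. *Rsad2* (ENSMUSG00000020641, viperin, an antiviral enzyme) measured 42.6, 47.5 and 43.7 CPM in DKO and 20.6, 16.8 and 17.7 CPM in JMO libraries (log2 -1.27, SE 0.0803, adjusted p = 8.76e-15). *Oas3*, a sensor that makes oligoadenylate on double-stranded RNA, measured 81.3, 82.2 and 101 CPM in DKO and 41.3, 34.7 and 44 CPM in JMO libraries (log2 -1.14, SE 0.134, adjusted p = 2.17e-06). *Oas3* lost the minimum-fold call with DESeq2 (minimum-fold adjusted p = 0.135) and in a fit of the groups compared alone (0.122). *Zbp1*, a nucleic acid sensor, went from 35.4 ± 3.4 to 19.5 ± 1.47 CPM (log2 -0.86) and passed the minimum fold only without a filter on low counts or in a fit of the groups compared alone (minimum-fold adjusted p = 0.00597 and 0.00815). The DKO libraries were higher throughout, and all of these genes were lower still in the lines that keep the kinase domain: *Rsad2* stood at 5.2, 1.1 and 1.2 CPM with IR, K1030R and ∆CT.

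The core of the interferon-stimulated response element, the site of the interferon-activated ISGF3 and IRF factors, was searched as GAAANNGAA on both strands of RefSeq promoters (GRCm38.p6), from 250 bases before to 50 bases after a start. It was found in 790 of the 10821 tested genes with a promoter (7.3%). A comparison of called genes with this share is void, since promoters were held for only 145 of the 212 genes higher, 79 of the 113 genes lower and 41 of the 55 interferon-stimulated genes, under 80% of each. The 250 bases before the start are printed for 3 named genes that fell and hold the core, to show where it lies. Capitals mark the core, which starts 40 bases before the start of *Trim30d* and 119 before that of *Rsad2*, on the opposite strand in both, and 75 before that of *Oas3*, where 2 overlapping cores stand on the printed strand. Among other named genes called at the minimum fold, the core is in the windows of *Cyp1a1*, *Sema3d*, *Pcdh7*, *Svep1*, *Jag1* and *Ripk3*, which rose, and of *Spp1*, which fell, and was not found in those of *Sp110*, *Sp140* and *Trim30c*.
Trim30d, chr7:104507850-104508099, minus strand: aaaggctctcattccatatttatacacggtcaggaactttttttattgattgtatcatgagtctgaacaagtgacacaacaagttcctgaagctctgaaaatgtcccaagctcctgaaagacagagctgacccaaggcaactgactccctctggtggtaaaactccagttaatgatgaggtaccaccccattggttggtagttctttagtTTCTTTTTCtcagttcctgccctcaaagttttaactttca
Rsad2, chr12:26456453-26456702, minus strand: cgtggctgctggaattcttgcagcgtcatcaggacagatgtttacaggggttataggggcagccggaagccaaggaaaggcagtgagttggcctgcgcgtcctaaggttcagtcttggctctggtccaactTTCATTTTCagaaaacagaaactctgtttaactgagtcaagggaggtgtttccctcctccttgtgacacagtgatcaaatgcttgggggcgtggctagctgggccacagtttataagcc
Oas3, chr5:120777660-120777909, minus strand: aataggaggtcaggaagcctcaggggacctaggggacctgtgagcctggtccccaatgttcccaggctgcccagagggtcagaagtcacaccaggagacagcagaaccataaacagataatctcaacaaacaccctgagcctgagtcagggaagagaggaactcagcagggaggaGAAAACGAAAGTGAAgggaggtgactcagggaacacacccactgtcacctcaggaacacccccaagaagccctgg

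*Trim30d* itself, a member of the TRIM30 family of ubiquitin ligases whose relatives are induced by interferon, measured 6.52, 5.8 and 7.09 CPM in DKO and 1.26, 0.969 and 1.19 CPM in JMO libraries, and its near copy *Trim30c* measured 3.04, 2.96 and 3.0 CPM in DKO and 0.569, 0.765 and 0.892 CPM in JMO libraries. The sharing of reads between the copies is uncertain. Of 17 genes of MHC class I presentation, 2 were higher and 1 lower. *H2-K1*, a classical class I heavy chain, measured 190.1, 198 and 208 CPM in DKO and 243, 239 and 254 CPM in JMO libraries (log2 0.30, adjusted p = 4.02e-05), and *Nlrc5*, the transactivator of class I genes, rose by 0.38 (adjusted p = 0.00317), while *H2-T23* fell by 0.38 on the log2 scale.

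Of 21 genes of complement and the acute phase, 10 were higher and 3 lower. *Lcn2*, lipocalin 2, which withholds iron from bacteria, measured 55.2, 55.6 and 53.6 CPM in DKO and 131, 128 and 135 CPM in JMO libraries (log2 1.26, SE 0.0449, adjusted p = 5.71e-21). *C1ra*, a protease of the classical complement pathway, went from 182 ± 5.97 to 239 ± 7.87 CPM (log2 0.40). *Serpina3n*, an acute phase protease inhibitor, moved the other way, at 20.4, 20.5 and 21.7 CPM in DKO and 9.55, 8.83 and 9.96 CPM in JMO libraries (log2 -1.14, SE 0.114, adjusted p = 6.42e-10). Of 25 chemokines and cytokines, 6 were higher and 2 lower (1 without DKO replicate 2, JMO replicate 1 or JMO replicate 3). *Cx3cl1*, fractalkine, measured 60.4, 63.9 and 68.9 CPM in DKO and 114, 116 and 124 CPM in JMO libraries (log2 0.87, adjusted p = 6.58e-14), with no overlap. *Cxcl1* and *Cxcl12* rose by 0.59 and 0.40, and *Vegfa*, the endothelial growth factor, fell by 0.65 on the log2 scale.

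Genes of basic cell functions had small median log2 fold changes. These were 0.11 for mitochondrial-encoded, 0.013 for nuclear oxidative phosphorylation and -0.025 for cytosolic ribosomal protein genes. All 13 mitochondrial-encoded protein genes were tested, and 5 were higher (38.5%, against 16.9% of all genes) and 0 lower. *mt-Nd5* (log2 0.19) and *mt-Cytb* (0.18) had the largest steps of those named, with *mt-Nd4l* at 0.17 and *mt-Co1* at 0.11. Of 78 nuclear genes of oxidative phosphorylation, 13 were higher and 4 lower, 16.7% and 5.13%, and these counts were 7 to 8 higher without DKO replicate 1, DKO replicate 3 or JMO replicate 2 and 1 to 2 lower without DKO replicate 1, DKO replicate 2, JMO replicate 2 or JMO replicate 3. The complex I subunits *Ndufs8*, *Ndufa13*, *Ndufb8* and *Ndufv1* rose by 0.29, 0.26, 0.25 and 0.21. Over the nuclear list the log2 fold change ran from -0.30 to 1.34, and no member passed the minimum fold. Of 80 cytosolic ribosomal protein genes, 7 were higher (4 without DKO replicate 3 or JMO replicate 2) and 11 lower (4 to 5 without DKO replicate 1, DKO replicate 2 or JMO replicate 3, 17 without DKO replicate 3, and 18 with RLE size factors), all by less than a log2 of 0.4. *Rpl22l1* rose by 0.38, *Rpl35* fell by 0.25 and *Rpl41* fell by 0.19 on the log2 scale.

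**Figure D3:**
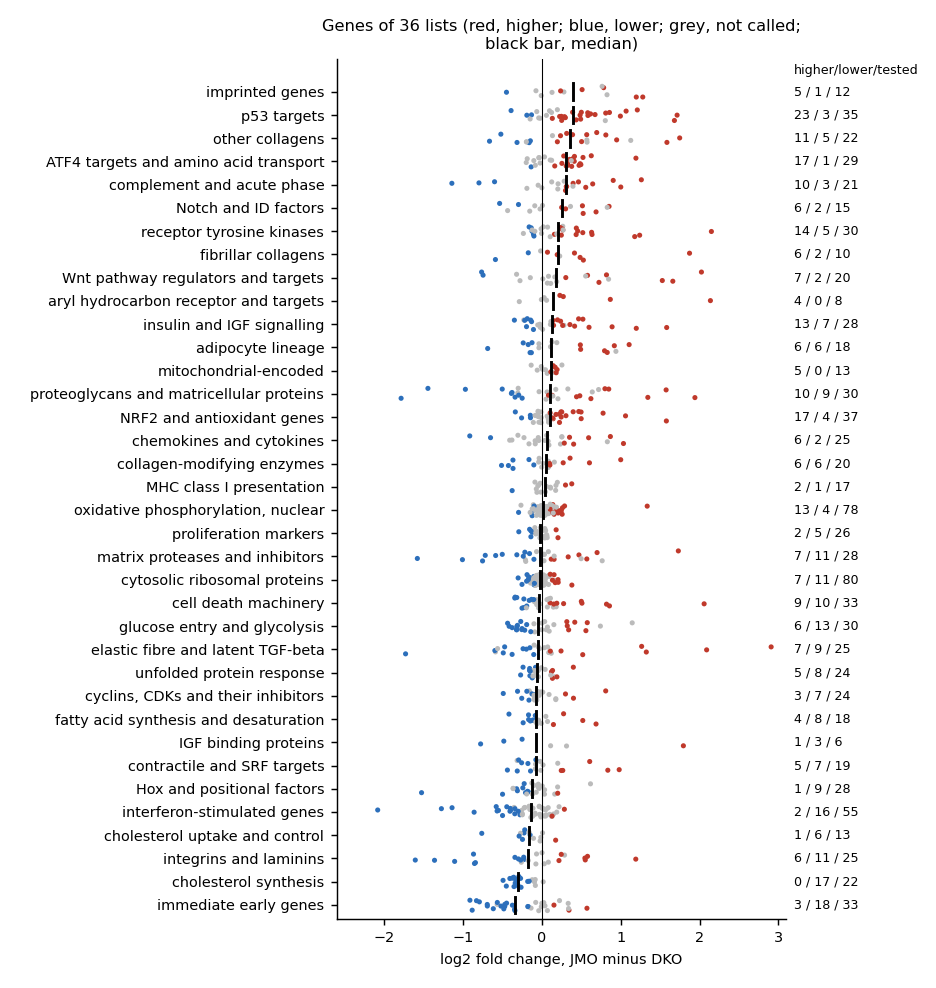
Log2 fold change of JMO against DKO cells for each tested member of 36 gene lists, 1 row per list ordered by its median, with members called higher in red, called lower in blue and not called in grey (no minimum fold), and the number higher, lower and tested at the right. The p53 target row has 23 of 35 members in red, and the cholesterol synthesis row has 17 of 22 in blue and none in red.

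JMO cells were also tested against the mean of the IR, K1030R and ∆CT lines, all basal, to see where their level of each named gene stands. This contrast uses the same JMO libraries, and the lines against DKO share the DKO libraries, so values are given side by side and the calls are not overlapped. It called 6744 genes (43.8%) without a minimum fold. Root mean square log2 differences between single libraries were 0.466 to 0.524 for JMO against DKO, 0.568 to 0.592 against IR, 0.55 to 0.601 against K1030R and 0.569 to 0.623 against ∆CT libraries, and 0.355 to 0.383 within JMO cells.

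For some genes JMO cells stood apart from every other line. *Ano3* was at 6.41 ± 0.195 CPM in JMO cells, 1.2 ± 0.0905 in DKO, 1.36 with IR, 1.34 with K1030R and 1.5 with ∆CT (JMO against the mean of the 3 lines, log2 2.2, adjusted p = 7.34e-16). *Cyp1a1* stood at 10.3 ± 0.849 CPM in JMO cells and at 0.69, 1.78 and 1.8 CPM with IR, K1030R and ∆CT (log2 2.97, adjusted p = 2.55e-17). *Slc16a6* stood at 1.22 ± 0.288 CPM against 0.20, 0.286 and 0.329 (log2 2.19, adjusted p = 1.41e-08). In these genes the other lines were near or below DKO cells. *Fmod* was higher in JMO cells than in the other lines by 1.5 (adjusted p = 7.07e-16), with 5.26, 5.93 and 4.04 CPM there. The p53 targets *Cdkn1a* (47.4, 44.9 and 41.1 CPM, log2 0.72, adjusted p = 1.26e-16), *Fas* (19.98, 21.7 and 19.1 CPM, log2 0.79, adjusted p = 7.84e-14), *Ccng1* (log2 0.62) and *Trp53inp1* (log2 0.87) were likewise higher in JMO cells than in the mean of those lines.

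Other genes were lowest in JMO cells. *Insig1* stood at 304 ± 9.78 CPM in JMO cells and at 565, 642 and 679 CPM with IR, K1030R and ∆CT (log2 -1.04, adjusted p = 2.27e-24). *Cyp51* differed from the mean of the lines by -0.79 and *Fasn* by -0.69. These sterol and lipid genes were thus below both DKO cells and the mean of the other receptor lines. *Klhl30* (0.377 ± 0.0719 CPM, against 1.94, 1.19 and 0.823, log2 -1.71, adjusted p = 1.1e-06) and *Dusp27* (0.644 ± 0.14 CPM, against 3.28, 1.83 and 2.1, log2 -1.83, adjusted p = 1.08e-09) were also below them. *Col3a1* stood at 719.8 ± 13.2 CPM, against 2883, 1585 and 1970.0 CPM (log2 -1.53, adjusted p = 3.14e-29).

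A further set had JMO cells between DKO cells and the lines that keep the kinase domain. *Fbn2* was at 0.852 ± 0.124 CPM in DKO, 6.33 ± 0.268 in JMO and 35.7, 11.5 and 31.1 CPM with IR, K1030R and ∆CT (log2 -1.88, adjusted p = 1.49e-21). *Rspo2* was at 5.12 ± 0.252, 20.9 ± 1.17, 48.5, 28.3 and 31 CPM in the same order, and *Ogn* at 182 ± 6.02, 317 ± 6.85, 583, 489.5 and 521. Here each step from DKO to JMO to the mean of the other lines was called in the same direction. Among genes that fell, *Sp110* was at 22.7 ± 0.975, 5.37 ± 1.07, 1.48, 0.524 and 0.366 CPM, *Hmga2* at 349 ± 25.2, 133 ± 17.9, 53.2, 109 and 92.6, and *Spp1* at 525 ± 10.7, 268 ± 11.9, 109.9, 183 and 167. Over the 55 interferon-stimulated genes, 54 were higher in JMO cells than in the mean of the 3 lines, with a median log2 of 1.36. Over all 15402 genes tested, 3379 were higher and 3365 lower in this contrast, with a median of 0.0051.

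The JMO level could also lie on the far side of DKO cells from the other lines. *Ltbp2* was at 49 ± 0.255 CPM in DKO and 118 ± 9.52 in JMO cells but at 1.13, 2.87 and 1.73 CPM with IR, K1030R and ∆CT (log2 6.05, adjusted p = 3.41e-40). *Lcn2* showed the same order, with 1.51, 3.7 and 2.22 CPM in those lines (log2 5.82), and so did *H2-K1*, with 37, 28.9 and 25.8 CPM (log2 3.02). For other genes JMO cells stood close to the other receptor lines. *Thy1* was at 26.2 ± 1.28 CPM in JMO cells and 21.8, 28.8 and 25 CPM in the others, a difference from their mean of 0.07 (adjusted p = 0.291), and *Pcdh7* at 7.14 ± 0.463 and 7.57, 7.26 and 5.93 CPM (0.06, adjusted p = 0.642), and a p above the threshold does not show that the levels are equal.

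**Figure D4:**
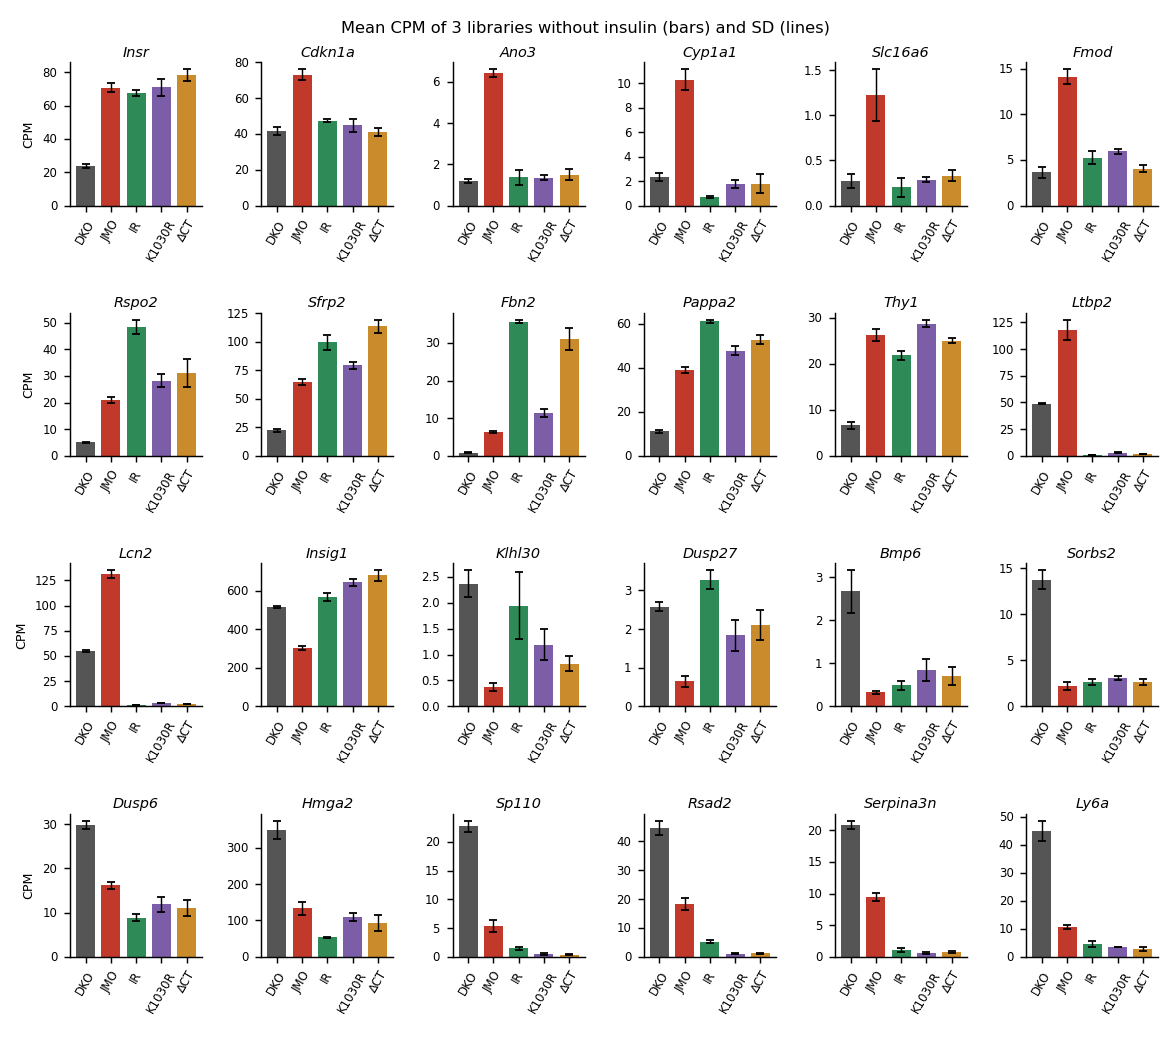
Mean CPM ± SD (bars from 0, n = 3 libraries) of 24 named genes in basal DKO, JMO, IR, K1030R and ∆CT cells, 1 panel per gene with its own axis. *Ano3*, *Cyp1a1* and *Slc16a6* are highest in JMO cells, *Insig1* and *Klhl30* are lowest there, and *Fbn2*, *Rspo2*, *Sp110* and *Rsad2* are intermediate.

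The called genes had some features that the comparison did not use. Genes that rose spanned a median of 34.3 kb of the genome (211 with coordinates), genes that fell 22.3 kb (112) and all genes tested 20.3 kb (15202). Neighbours among the tested genes were listed only where both were called in the same direction. *Sp110* and *Sp140*, *Trp53cor1* and *Cdkn1a*, and *Ccn3* and *Enpp2* are such pairs. Of the 325 called IDs, 26 had no gene name or only a provisional one (Gm plus digits, Rik or a clone name), and 2 shared all of their counts with another ID.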

How the data were processed

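Poly(A) RNA of 3 DKO and 3 basal JMO libraries, with the other 20 libraries of the series in the same fit, was analysed. The authors made reverse-stranded libraries and sequenced them from 1 end, used fastp for trimming, kallisto for assignment to the Ensembl mouse transcripts of GRCm38, and tximport for gene totals. The deposited values are expected counts per gene and library, neither filtered nor scaled. kallisto divides reads among similar transcripts, so values of near copies depend on that division, and a human receptor is seen only through its match to mouse *Insr*.

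Counts were rounded, genes above 0.5 CPM in at least 4 libraries were kept, and libraries were scaled with TMM factors. All 26 libraries entered 1 quasi-likelihood fit (robust option) with a mean for each of the 9 groups (edgeR 4.0.16, R 4.3.3). The biological coefficient of variation was 4.44%. Calls at a minimum fold of 1.5 used glmTreat, and log2 fold changes, SE (the log2 fold change over the square root of F), adjusted p and list counts used the test without a minimum fold, both at a Benjamini-Hochberg adjusted p below 0.05. All CPM are TMM-scaled except those of the 0.5 CPM filter, summed marker levels and shares of library counts, which use unscaled library totals. Spread between replicates exceeded counting error in both groups (chi-square per degree of freedom 2.95 to 5.42). The steps were tested on simulated data.

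The comparison, the gene lists and the motif were chosen with earlier results of these data known. Genes named were *Insr*, *Igf1r*, *Cdkn1a* and *Trp53inp1*, the 15 largest increases and 15 largest decreases among genes called at the minimum fold with a gene name, no overlap between groups and a mean of at least 1 CPM in the higher group, the 5 of these with the highest CPM in each direction, and in each list up to 4 called members with the smallest p, a few of which are not reported here. Other names are marked as chosen after their values were seen, or are quoted for marker lists and neighbours. Alternatives were RLE size factors, other filters on low counts, DESeq2 1.42.0, limma 3.58.1 on voom values, a fit of only the groups compared, the replicate number as a block, a stricter threshold, insulin-treated in place of basal JMO libraries, and each library left out in turn. Gene coordinates and names are those of GENCODE M21 on GRCm38, and promoters are from RefSeq.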

Additional observations from a re-analysis of the deposited data

How the results depend on the processing

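Against the 325 genes called at a minimum fold of 1.5, DESeq2 called 164 (92 higher, 72 lower) and limma on voom values 216 (126 higher, 90 lower). A minimum-fold adjusted p below 0.001 left 158 (93 higher, 65 lower). The other alternatives stayed within 1.5 times the main count, and a fit of only the groups compared split its 316 into 182 higher and 134 lower. Leaving out 1 library in turn gave 262 to 290 genes at the minimum fold, 4342 to 4751 against 5276 without a minimum fold, and 5704 to 5933 against 6744 for JMO cells against the mean of the other receptor lines. No gene called both in the main fit and in an alternative changed direction between them. Replicate numbers did not pair the libraries, since deviations of equally numbered JMO and DKO libraries correlated at -0.0274, -0.000581 and 0.0295, and with the replicate number as a block 330, 5405 and 6852 genes were called. The scalings tried moved the median log2 fold change of all genes little, most without *Gm42418* and *Lars2*, where it fell by 0.00828. For the genes chosen for naming, 2526 results under alternatives kept their side of the threshold and 21 lost it, and of the list medians 276 moved by less than their spread over JMO libraries and 60 by more; the causes were not tested. Depth limits genes below about 1 CPM, where a group's value rests on few counts, as for *Krt8*, with 3 or fewer counts in JMO cells. Its call at the minimum fold was lost without DKO replicate 1, 2 or 3 or JMO replicate 1 or 2. It was also lost with DESeq2, with limma and in the fit of only the groups compared (minimum-fold adjusted p = 0.0589 to 0.67 over all of these).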

Other observations

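Calls at the minimum fold were unevenly spread over chromosomes, a pattern seen after the values and not tested. Over all genes tested, 1.38% were higher and 0.734% lower. On the X chromosome 20 of 485 tested genes were higher (4.12%) and 1 was lower (0.206%, *Xlr*). On chromosome 8 there were 20 higher and 6 lower of 778 (2.57% and 0.771%). On chromosome 16 there were 12 higher and 1 lower of 475 (2.53% and 0.211%), and on chromosome 12 there were 8 higher and 11 lower of 572 (1.4% and 1.92%). Shares on chromosome 3 (2.32% and 0.387%) and chromosome 1 (2.09% and 1.65%) were not far from these. The median log2 fold change of all tested genes was 0.036 on the X chromosome, 0.169 on chromosome 8, 0.0538 on chromosome 16 and -0.172 on chromosome 12. It was 0.1554 on chromosome 19 and -0.0982 on chromosome 10. *Insr* is on chromosome 8 and *Hs6st2* on the X chromosome.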
